A study of Mus musculus with 8 samples.

Results

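The stomach of the wild type mouse embryo at E13.5 was described here from 4 of the 8 RNA-seq libraries of the study, chosen by their wild type genotype label. The levels of the 23165 named loci among 26747 assembled loci were ranked, grouped by tissue compartment and signalling pathway, and compared between the 4 libraries. The labels name no transgene and no agent for these embryos. Stomachs were dissected and frozen, and their RNA was taken up in Trizol and turned into libraries with the TruSeq RNA kit of Illumina, so every level is an average over all cells of the dissected piece. The labels give no strain, sex or pool size, and do not say whether a library is 1 embryo. The spread between libraries may therefore be technical in part. The other 4 libraries of the study come from embryos with Nkx3.2Cre and R26-YAP5SA and were not compared here.

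At this stage the stomach is a tube of epithelium that comes from the endoderm, wrapped in mesenchyme in which a ring of smooth muscle is forming, while neural crest cells settle in the wall as enteric neurons and glia. Signals pass between these layers: the epithelium sends Hedgehog ligands to the mesenchyme, and the mesenchyme answers with Wnt, BMP, FGF and retinoic acid signals and with transcription factors such as Barx1 that set stomach identity. The front of the organ becomes the squamous forestomach and the rear the glandular stomach, and the pancreas, spleen, liver and first part of the intestine grow directly beside it.

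The libraries are named 0 to 3, the numbers the deposited table gives them. Those numbers were not joined to the numbers in the sample titles. They held 6328344, 6919353, 6892438 and 6491271 fragments, a mean of 6.66 ± 0.294 M (SD, n = 4). Levels are FPKM, fragments scaled to transcript length and library size, and profiles of log2(FPKM + 1) correlated at 0.947 to 0.974 across 13515 genes, which are not independent replicates.

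Libraries 0 and 3 stood apart from the rest. Xist, the RNA that silences an X chromosome in female cells, stood at 0.135, 0.0282, 0.0265 and 59.4 FPKM in libraries 0 to 3. The Y-linked gene Ddx3y stood at 22.2, 23.5, 20.2 and 0.0348 FPKM. Eif2s3y, another Y-linked gene, stood at 43.7, 39.8, 32.8 and 0.0432 FPKM. Library 3 thus had Xist and almost no Y-linked RNA and the other 3 the reverse, so sex and library 3 cannot be told apart here. Library 0 had the highest levels of pancreatic and endocrine genes, described below.

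The label of stomach fitted the leading markers. Barx1, a homeodomain factor of stomach mesenchyme, stood at 101, 100.1, 105 and 103 FPKM in libraries 0 to 3. Sox2, a factor of foregut epithelium, stood at 32.6, 28.8, 32.5 and 37 FPKM. Both were at like levels in the 4 libraries. The lung factor Nkx2-1 had no fragment in any of them, and the 7 intestinal genes with a locus of their own averaged 0.267 FPKM (Cdx1) to 5.51 FPKM (Vil1).

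A total of 13531 named loci (58.4%) reached 1 FPKM in all 4 libraries, and 14266 (61.6%) reached it on average. Of the 22013 distinct single gene names, 12847 reached it in all libraries, 9363 averaged 10 FPKM or more and 1632 averaged 50 or more. No fragment was counted for 4579 of them. The median of the expressed names was 20.25 FPKM.

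The very top of the ranking by mean FPKM was made of short loci with few fragments. Of the 25 single-name loci with the highest means, 16 carried a microRNA or small nucleolar RNA name, 14 had under 10 fragments over the 4 libraries together, and all 25 had under 100 in some library. Mir682 led with 6235, 5750.3, 5588 and 6187 FPKM, from 21, 21, 20 and 21 fragments. Mir1895 came next with 5383, 1780.3, 2057 and 0 FPKM. FPKM divides by the length of a transcript, which is very small at such loci, and Mir1895 went from none to the highest value between libraries. Because Mir682 held that first rank, its hairpin is shown here as RefSeq gives it (GRCm38.p6, chr13:75645046-75645141, plus strand), above the matching stretch of the transcript of Rpl37a, a ribosomal protein gene, with the differing base in capitals.
Mir682 hairpin: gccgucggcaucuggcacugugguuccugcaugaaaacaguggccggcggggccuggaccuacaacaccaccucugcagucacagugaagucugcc
Rpl37a transcript: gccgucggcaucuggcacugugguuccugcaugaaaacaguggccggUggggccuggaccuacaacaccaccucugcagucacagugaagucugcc
The stretch from Rpl37a matched the hairpin at 95 of 96 bases (99.0%), and the gene Gm4149 matched it at 96 of 96. Reads of Gm4149, and reads of Rpl37a that miss the differing base, cannot be told apart from reads of the microRNA locus by sequence, so its level is uncertain.

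Among the 10199 single-name loci with at least 100 fragments in every library, none of those 25 remained, and the leading genes were housekeeping genes, contractile genes and imprinted genes, with a globin. The leader was Ubb, which encodes ubiquitin, with 225, 212, 218 and 226 FPKM in libraries 0 to 3. Atp5k, a subunit of ATP synthase, had 212, 181, 194 and 193 FPKM. Hbb-y, the embryonic beta-like globin, had 179.6, 177, 177 and 188 FPKM. All 3 were high in every library. Of the leading 40, 11 belong to the respiratory chain, ATP synthase or its inhibitor, and 3 encode ribosomal proteins. The 40 also held the contractile genes Tpm1 (169 ± 5.05 FPKM) and Myl9 (128 ± 5.18 FPKM), both high in smooth muscle. They held the imprinted genes H19 (159 ± 8.4 FPKM), Igf2 (143 ± 3.64 FPKM) and Cdkn1c (132 ± 4.0 FPKM), which act on fetal growth. Mdk, the secreted growth factor midkine, averaged 143 ± 8.08 FPKM.

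The leading 40 genes lay close together, from 220.2 down to 128.3 FPKM, a range of 1.72-fold, and 180 loci of this depth reached 100 FPKM while 1 reached 200. No gene of this depth with 300 exonic bases or more had over 0.94 fragments per exonic base in a library on average. The spread between libraries beyond counting error was smallest at the highest density. The chi-square statistic divided by its degrees of freedom had a median of 2.03 under 0.02 fragments per base, 2.50 at 0.02 to 0.05 and 1.41 at 0.4 or more, where counting error alone gives 0.79. The sources used here do not give how duplicate reads were treated, and its part in these levels was not tested. Ranks among them are therefore given as deposited, with no ratio of RNA amounts read from them.

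Genes were placed in 38 lists, 21 of tissue compartments, 11 of pathways and 6 of tissue states. Of their 629 genes, 599 had a locus of their own, 24 lay only in joined loci, which carry several gene names and one value, and 6 were not named in the table. For 23 genes, among them Myl9, Tcf21, Six2, Neurog3, Sfrp1, Wnt5b, Ctgf and Tead4, the table holds further loci of the same name, so that reads may be split, and the locus with the most fragments was used. Medians below are over the members with a locus of their own. A gene is called variable where its fragments differed between the 4 libraries by more than counting error, at an adjusted p under 0.05, and its coefficient of variation (CV) was 0.25 or more. Over all 14457 named loci tested, 1275 (8.82%) were called variable. On the lists 106 genes were, 70 of them highest in library 0, and 60 of the 106 were still called without library 0. The share called over loci depended on fragment density. It was 25.49% under 0.02 fragments per exonic base, 1.44% at 0.1 to 0.2, 0.88% at 0.2 to 0.4 and 2.31% above. A list of high density with few or no calls is therefore not shown to be steadier than other genes.

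**Figure D1:**
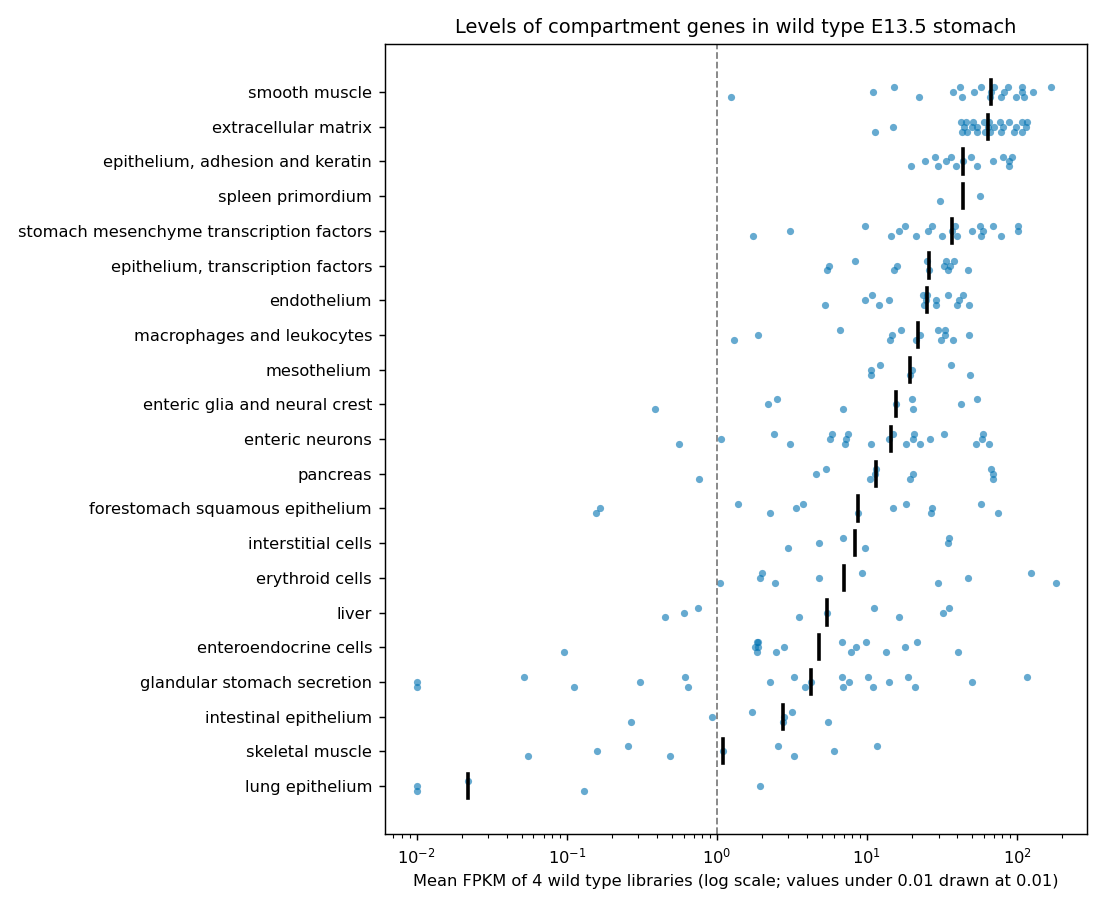
Mean FPKM (log scale) of each gene with its own locus in the 21 compartment lists of the 4 wild type libraries. Points are genes, bars are list medians and the dashed line marks 1 FPKM, so that smooth muscle (median 67.6) and matrix genes (63.7) lie highest and lung genes (0.022) lowest.

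Contractile genes of smooth muscle stood highest of all compartments in FPKM, with a median of 67.6 FPKM over 21 genes. In fragments per exonic base their median was 0.251, below the 0.285 of matrix genes, so the order of these lists depends on the length used. All 21 averaged over 1 FPKM, and none was called variable. Acta2, the smooth muscle alpha-actin, had 115, 103, 105 and 109.8 FPKM in libraries 0 to 3. Actg2, the gut form of smooth muscle gamma-actin, had 124, 106, 109 and 109 FPKM. Myh11, the smooth muscle myosin heavy chain, had 67.2, 70.8, 72.8 and 68.3 FPKM. Each of the 3 kept nearly the same level in every library, with CVs of 0.0464, 0.0708 and 0.0359. Tagln, an actin-bundling protein, averaged 87 ± 6.51 FPKM and Cnn1, the calponin of smooth muscle, 57.9 ± 4.34 FPKM. Genes of the mature contractile state were lower. Lmod1 averaged 11.1 ± 0.83 FPKM, and Kcnmb1, the beta subunit of the calcium-gated potassium channel, averaged 1.24 ± 0.209 FPKM. The regulators of the program were moderate in level, with Srf at 37.4 ± 2.73 FPKM and Myocd, its muscle-specific coactivator, at 15.1 ± 1.9 FPKM. In whole tissue, fewer cells of a type and less RNA per cell cannot be told apart, here and below.

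Srf binds a DNA element known as the CArG box, which many smooth muscle promoters carry. Because these genes were high together, the RefSeq promoters of the smooth muscle list were searched for it on both strands over the 250 bases before the start. Of 18 genes with a promoter entry, 3 held a match, namely Myl9, Myl6 and Srf itself, beside 1.47% of all 32851 promoters. The 200 bases before the start of the 2 that have a locus of their own in the table are shown with the matches in capitals (GRCm38.p6). The window of Myl9 is chr2:156775264-156775463 on the plus strand, and that of Srf is chr17:46556163-46556362 on the minus strand.
Myl9 promoter: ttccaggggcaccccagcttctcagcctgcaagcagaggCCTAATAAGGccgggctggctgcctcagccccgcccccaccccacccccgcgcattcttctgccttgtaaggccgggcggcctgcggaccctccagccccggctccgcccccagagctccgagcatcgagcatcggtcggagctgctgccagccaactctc
Srf promoter: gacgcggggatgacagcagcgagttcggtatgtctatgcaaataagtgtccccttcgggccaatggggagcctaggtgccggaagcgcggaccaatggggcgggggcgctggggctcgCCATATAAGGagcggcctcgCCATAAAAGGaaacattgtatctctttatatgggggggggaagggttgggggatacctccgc
The match of Myl9 lay 161 bases before the start, and those of Srf 82 and 62 bases before it. The search is a description of letters in this window and shows no binding.

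Transcription factors of stomach mesenchyme had a median of 36.7 FPKM, and all 21 reached 1 FPKM in every library. Barx1 led with 102 ± 2.18 FPKM, followed by Tcf21, a factor of visceral mesenchyme, with 101 ± 1.66 FPKM. Those neighbours did not differ beyond their spread. Foxf1a, a forkhead target of Hedgehog signalling in gut mesoderm, averaged 78.2 ± 2.94 FPKM. Pitx1, a homeodomain factor of hindlimb and gut mesoderm, averaged 69.3 ± 5.67 FPKM. Nkx3-2, which marks stomach and splanchnic mesenchyme and whose locus drives Cre in the other genotype of the study, had 21.3, 24.6, 21 and 18 FPKM in libraries 0 to 3. It was thus about as abundant in each library and lay in the lower part of the list. The pyloric factors Six2, Nkx2-5 and Gata3 averaged 31.8 ± 1.85, 27 ± 4.62 and 3.06 ± 0.839 FPKM. Of the 21 tested, 1 was called variable, namely Foxl1, a factor of the mesenchyme just under the epithelium, with 11.6, 9.0, 6.16 and 12.2 FPKM. It was lowest in library 2, without which it was not called.

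Matrix genes followed the muscle genes closely in FPKM, with a median of 63.7 FPKM, and 0 of 27 were called variable. Their median density was 0.285 fragments per exonic base, and of all loci at 0.2 to 0.4 only 0.88% were called. Of the 27, 17 were highest in library 2, where the list summed to 1907 FPKM against 1716 to 1810 in the others. Sparc, which binds collagen, led with 116 ± 4.38 FPKM. Col3a1, a fibrillar collagen, had 117, 112, 116 and 113 FPKM in libraries 0 to 3. Col1a2 and Col1a1, the chains of type I collagen, averaged 108 ± 4.63 and 108 ± 4.99 FPKM. Fibrillar collagens thus stood at about the level of the smooth muscle actins. The basement membrane collagen Col4a1 averaged 70.02 ± 1.77 FPKM, and Eln, the elastin of elastic fibres, 46.2 ± 7.28 FPKM.

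Interstitial cells of Cajal, the pacemaker cells of gut muscle, arise from the same mesenchyme. Kit, their growth factor receptor, had 31.5, 35, 39.6 and 35.8 FPKM in libraries 0 to 3. Ano1, their chloride channel, had 34.5, 35, 32.1 and 36.8 FPKM. Both were steady, while the other 4 genes of the list averaged from 2.99 to 9.69 FPKM. Thbs4 alone among the 6 was called variable, with 4.82, 3.92, 3.86 and 6.59 FPKM, and it was not called without library 3, where it was highest.

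Epithelial adhesion genes and keratins had a median of 43.6 FPKM, and all 15 reached 1 FPKM in every library. Krt19, a keratin of simple epithelia, led with 104, 85.4, 92.3 and 87.2 FPKM in libraries 0 to 3. Epcam, an adhesion molecule of epithelial cells, had 75.4, 66.5, 64.5 and 71 FPKM. Cdh1, the epithelial cadherin, had 58.4, 46, 43.4 and 48.4 FPKM. Library 0 was the highest for all 3, and for 14 of the 15 genes. The list summed to 907 FPKM in library 0 and to 720.3 to 758 in the others. Only Cldn18, a tight junction claudin of stomach and lung, was called variable, with 43, 24.7, 25.6 and 25 FPKM, and it was not called without library 0.

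Epithelial transcription factors had a median of 26 FPKM. Gata4 led with 42.8, 44.8, 50.1 and 49.7 FPKM in libraries 0 to 3. Foxa1, a forkhead factor of endoderm, averaged 33.8 ± 4.22 FPKM and Sox2 32.7 ± 3.36 FPKM, and neither differed from the other beyond the spread. Hnf4a, a nuclear receptor of glandular gut epithelium, averaged 15.9 ± 2.05 FPKM. Of 13 tested, 2 were called variable, both highest in library 0 and neither called without it. Ehf, an epithelial Ets factor, had 11.7, 4.18, 3.53 and 3.06 FPKM. Foxa3 had 73.7, 49.7, 20.6 and 7.67 FPKM but 133, 88, 106 and 80 fragments. Its deposited FPKM differed between libraries far more than its fragments did, so its FPKM is uncertain. The list summed to 377 FPKM in library 0 and to 300.1 to 313 in the others, but without Foxa3 to 303, 263, 283 and 292 FPKM in libraries 0 to 3, where library 0 did not stand apart.

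Genes of gland secretion ran from abundant to absent, with a median of 4.22 FPKM over 21 genes and 7 under 1 FPKM on average. Cym, which encodes the milk-clotting protease chymosin of the young stomach, led with 137, 102, 129 and 98.7 FPKM in libraries 0 to 3. Agr2, a folding factor of mucus-secreting cells, had 61.9, 53.7, 29.1 and 56.1 FPKM. Tff1, a trefoil peptide of surface mucous cells, had 40.3, 27.6, 6.5 and 9.14 FPKM. Cym was high in every library, whereas Agr2 was low in library 2 and Tff1 low in libraries 2 and 3. The acid pump genes of parietal cells were low, with Atp4b at 3.87 ± 2.81 FPKM and Atp4a at 0.615 ± 0.282 FPKM. Pgc, a pepsinogen, averaged 7.65 ± 4.25 FPKM. Mucins of the mature glands, Muc5ac and Muc6, averaged 0.64 and 0.0516 FPKM. Gkn2, a gastrokine, and Lipf, the gastric lipase, had no fragment in any library. Of 15 tested, 8 were called variable, all highest in library 0, and 5 of the 8 were still called without it.

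Genes of the forestomach were variable for the most part, 10 of 11 tested, against 8.82% over all loci. Krt7 was the exception, with 78.4, 73.8, 78.7 and 68 FPKM in libraries 0 to 3. Krt5, a basal cell keratin, had 44.5, 18.4, 24.3 and 21.3 FPKM. Trp63, the master factor of stratified epithelium, had 11.8, 6.17, 6.95 and 9.92 FPKM. Krt5 and Trp63 were highest in library 0. Krt13, a keratin of the upper squamous layers, had 11, 0.389, 3.17 and 0.557 FPKM, and Krt4, its partner, 5.49, 0.521, 1.97 and 1.12 FPKM. Both stood out in library 0 and came next in library 2. Lor, which encodes loricrin of the cornified layer, went the other way with 9.39, 18.9, 18.6 and 12.7 FPKM, lowest in library 0. Of the 10, 8 were highest in library 0 and 3 were still called without it. The list had a median density of 0.027 fragments per exonic base, and of all loci at 0.02 to 0.05 a share of 13.53% was called.

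**Figure D2:**
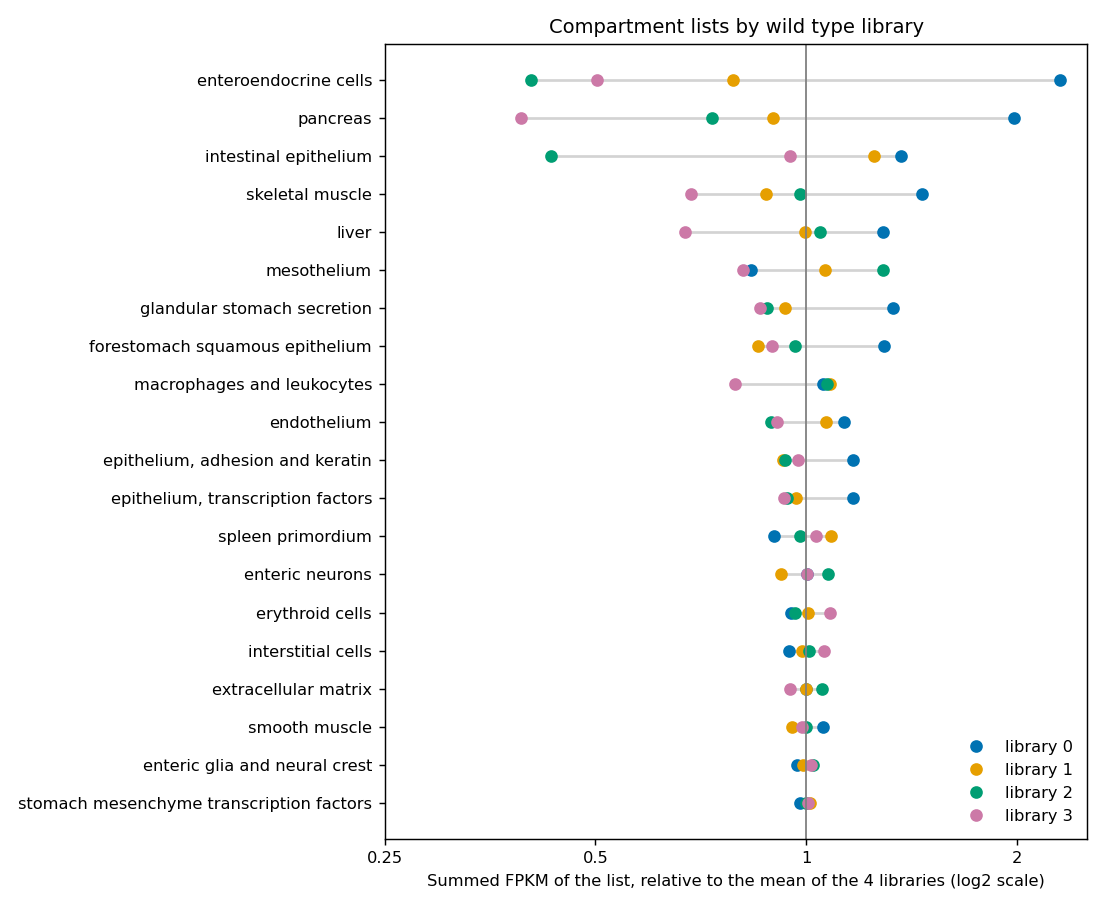
Summed FPKM of each compartment list in each wild type library, divided by the mean of the 4 libraries (log2 scale, coloured by library). Endocrine genes (5.72-fold from lowest to highest) and pancreatic genes (5.07-fold) spread most, with library 0 highest in both, and mesenchyme factors least (1.03-fold), while lung genes are left out as too low.

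Enteroendocrine genes varied more than any other compartment list by summed level, which was 326 FPKM in library 0 and 111, 57.0 and 70.8 in libraries 1 to 3. Gcg, which encodes glucagon and related gut peptides, had 99.6, 41.2, 7.32 and 13.1 FPKM in libraries 0 to 3. Chga, a protein of hormone granules, had 32.5, 9.16, 6.64 and 5.34 FPKM. Neurog3, the factor that starts endocrine fate, had 24, 6.77, 2.13 and 6.75 FPKM. Library 0 was highest for all 3, and for all 13 of the 14 tested genes that were called variable. Ghrl, which encodes the stomach hormone ghrelin, had 45.9, 13.3, 9.23 and 3.39 FPKM from 149, 86, 73 and 62 fragments, which differed less than its FPKM did, so its FPKM is uncertain. Without Ghrl the list summed to 279.6, 97.6, 47.7 and 67.4 FPKM. Gast, the gastrin gene of the glandular stomach, had 18.9, 5.22, 4.74 and 4.99 FPKM, and Sst, the somatostatin gene, 5.96, 0, 0.748 and 0.788 FPKM. These stomach hormones too were highest in library 0, from few fragments for Gast and Sst. Rfx6, a factor of endocrine cells, was tested and not called, with 7.65, 5.05, 4.81 and 9.79 FPKM. Without library 0, 4 of the 13 were still called, namely Chga, Gcg, Neurog3 and Pax6.

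Most genes of the enteric nervous system reached 1 FPKM in every library, 20 of 22 neuronal and 8 of 9 glial genes. The 22 neuronal genes had a median of 14.5 FPKM and the 9 genes of glia and neural crest 15.6. The neuronal list summed to 459, 421, 492 and 459 FPKM in libraries 0 to 3, and 13 of the 22 were highest in library 2. Gap43, a protein of growing axons, had 62.9, 65.5, 66.3 and 66.6 FPKM in libraries 0 to 3. Stmn2, a microtubule regulator of neurons, had 63.8, 56, 60.03 and 59.4 FPKM. Sox10, the factor of neural crest and glia, had 19.3, 18.8, 21.4 and 22 FPKM. Each differed little between libraries. Genes of transmitter use were low, with Vip at 5.84 ± 0.645 FPKM, Th, which marks catecholamine cells, at 3.09 ± 0.562, Nos1, the neuronal nitric oxide synthase, at 2.41 ± 0.681, and Chat, of cholinergic cells, at 0.562 ± 0.217 FPKM. Of glial genes, Fabp7 averaged 54.5 ± 4.55 FPKM, while Gfap, a marker of mature glia, averaged 0.388 ± 0.154 FPKM. Among 21 neuronal genes tested 2 were called variable, Nos1 and Dbh, and among 8 glial genes 1, S100b, beside 8.82% over all loci. None of the 3 was called without library 0.

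Endothelial genes had a median of 25 FPKM, and 0 of 16 were called variable. Pecam1, an adhesion molecule of vessels, had 46.8, 46.7, 40.1 and 39.8 FPKM in libraries 0 to 3. Cdh5, the vascular cadherin, had 41.7, 42.7, 37.1 and 36.8 FPKM. Kdr, the main VEGF receptor, had 23.5, 27.2, 24.6 and 23 FPKM. Pecam1 and Cdh5 were a little higher in libraries 0 and 1, and 11 of the 16 genes were highest in library 0 with the other 5 highest in library 1. The lean to library 0 was not particular to endothelium, since 12 of 21 smooth muscle and 7 of 10 imprinted genes were highest there too. Of matrix genes 8 of 27 were, and of cell cycle genes 4 of 22. The share over all genes was not counted. Macrophage genes had a median of 22 FPKM with 0 of 14 called variable. Tyrobp, a signalling adaptor of myeloid cells, had 54.2, 52.8, 49.8 and 35.3 FPKM, and Csf1r, the receptor macrophages need to live, 21.6, 21.3, 25.8 and 16.4 FPKM. Library 3 was low for both, and the list summed to 246 FPKM there against 329 to 337 in the other 3.

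Globins of the first red cells were among the most abundant RNAs. Hba-x, the embryonic alpha-like globin, had 107, 129.7, 121 and 142 FPKM in libraries 0 to 3. Hbb-bh1, an embryonic beta-like globin, had 30.9, 46, 42.5 and 67.9 FPKM. Both were highest in library 3 and lowest in library 0. The adult globin names Hba-a1, Hba-a2, Hbb-b1 and Hbb-b2 lay only in joined loci and are not reported. Alas2, the haem synthesis enzyme of red cells, averaged 29.6 ± 4.57 FPKM, and Gata1, their master factor, 2.0 ± 0.592 FPKM. Slc4a1, the anion exchanger of the red cell membrane, had 14.3, 8.15, 8.04 and 6.71 FPKM. It was highest in library 0 and lowest in library 3, while these globins were lowest and highest there. Of 10 tested, 5 were called variable, and 3 of the 5 still were without library 0 and 3 of the list without library 3.

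Genes of the mesothelium, the outer cover of the organ, were mostly highest in library 2. Upk3b, a membrane protein of mesothelial cells, had 44.5, 51.1, 61.8 and 38.5 FPKM in libraries 0 to 3. Wt1, their zinc finger factor, had 28.8, 40.5, 45.4 and 30.8 FPKM. Bnc1, another factor of this layer, had 11.1, 22, 27.1 and 19.5 FPKM. All 3 were highest in library 2, as were 6 of the 7 genes of the list. That lean was not particular to mesothelium, since 17 of the 27 matrix genes and 13 of the 22 neuronal genes were highest there too. The list summed to 132, 169, 204 and 129 FPKM, and 3 genes (Bnc1, Lrrn4 and Gpm6a) were called variable. Tlx1, the factor of the spleen primordium, had 29.8, 39, 23.3 and 30.1 FPKM, lowest in library 2, and was not called.

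Genes of organs that lie beside the stomach were detected as well, and those of the pancreas were the most variable. Ctrb1, a chymotrypsinogen of acinar cells, had 142, 61.6, 50.6 and 23.8 FPKM in libraries 0 to 3. Cpa1, a carboxypeptidase of the early pancreas, had 106, 75.5, 60.4 and 28 FPKM. Ptf1a, the acinar master factor, had 11.9, 3.2, 2.47 and 0.83 FPKM. The order of the libraries was 0, 1, 2, 3 in all 3. Ins2, an insulin gene, had 72, 1.77, 3.46 and 0.432 FPKM from 116, 3, 6 and 1 fragments, and Ins1 had 18.6, 1.24, 1.62 and 0 FPKM. The insulins were thus high in library 0 alone. Pdx1, a factor of pancreas, duodenum and antrum, had 19.4, 10.4, 8.15 and 8.32 FPKM. All 10 genes tested were called variable and highest in library 0, and 7 of them were still called without it, all but Ins1, Ins2 and Pdx1. Pnlip, the lipase of the mature pancreas, averaged 0.761 FPKM. The list summed to 574, 260, 212 and 113 FPKM. How much pancreas each dissected piece held was not measured, and its part in the endocrine values above, which rank library 0 highest too, was not tested.

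**Figure D3:**
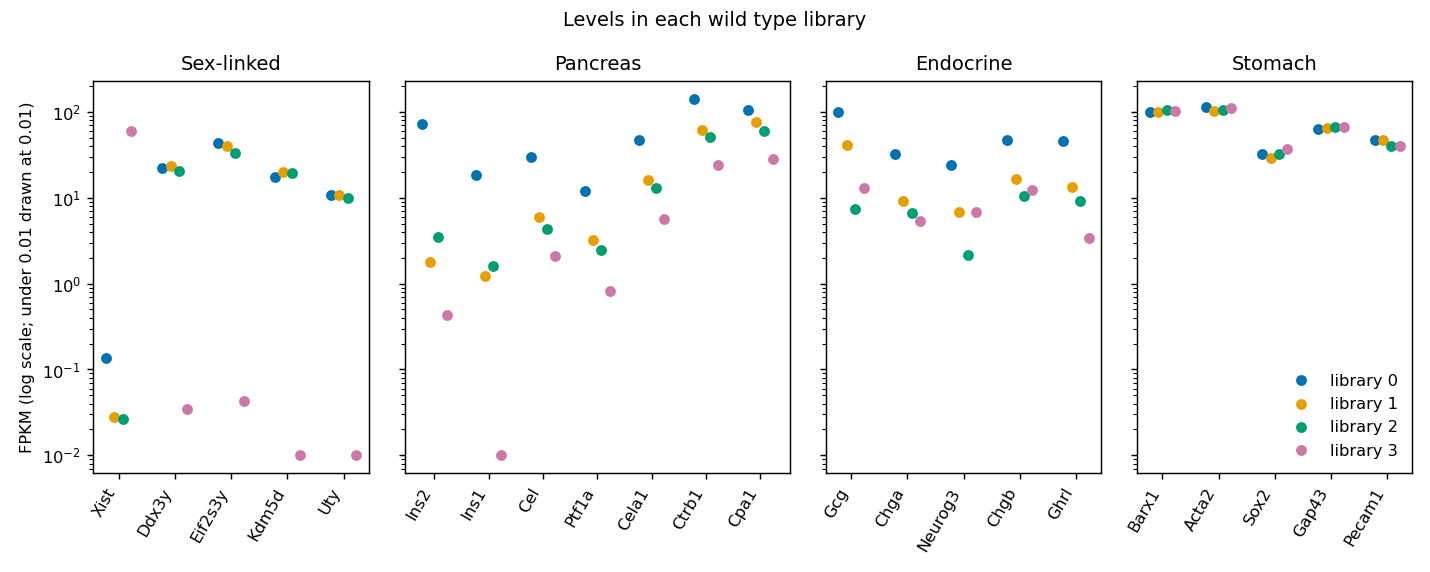
FPKM (log scale) of sex-linked, pancreatic, endocrine and stomach genes in each wild type library, one point per library. Library 3 alone has Xist (59.4 FPKM) and lacks Y-linked RNA, library 0 is highest in every pancreatic and endocrine gene shown, and the stomach genes lie together.

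Genes of liver, intestine and skeletal muscle were lower, with medians of 5.43, 2.76 and 1.10 FPKM. Ttr, the transthyretin gene of liver and endocrine cells, led the liver list with 54.1, 33.7, 28.1 and 24.2 FPKM in libraries 0 to 3. Afp, the fetal serum protein made by liver and yolk sac, had 15.1, 12.2, 13.7 and 3.94 FPKM. Alb, serum albumin, had 7.02, 5.15, 8.12 and 1.43 FPKM. Afp and Alb were lowest in library 3 and were called variable, but not without that library. Cdx2, the master factor of intestine, had 3.53, 4.21, 0.83 and 2.63 FPKM. Vil1, a protein of the brush border, had 7.62, 5.65, 2.97 and 5.79 FPKM. These intestinal genes were lowest in library 2, as were Cdh17 and Isx, and all 4 were called variable. Without library 2, 1 of the 4 was, namely Cdh17. Myod1, a factor of skeletal muscle, averaged 0.485 FPKM, and of the muscle genes with a locus of their own Mylpf, a fast myosin light chain, was highest with 11.7 ± 3.43 FPKM. Of the lung genes, Sftpc averaged 0.131 FPKM and Scgb1a1 had no fragment.

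Both main Hedgehog ligands were present, and the genes that answer them were at moderate to high levels. Ihh had 31.3, 27.6, 31 and 38.3 FPKM in libraries 0 to 3, and Shh had 25.8, 21.2, 23.4 and 31.1 FPKM. Ihh was the higher of the pair in every library, though their ranges over libraries overlapped. Dhh, a ligand of gonad and nerve sheath, averaged 0.954 ± 0.326 FPKM. Smo, which carries the signal across the membrane, averaged 60.6 ± 1.6 FPKM and the coreceptor Gas1 60.01 ± 4.28 FPKM, a pair that did not differ beyond the spread. Ptch1, the receptor and a target of the pathway, had 45.7, 42.2, 38.9 and 50.7 FPKM. Gli1, the target that reports pathway activity, had 34, 25.6, 22.7 and 39.8 FPKM. Hhip, a decoy receptor induced by the pathway, had 8.94, 10.7, 8.88 and 15.6 FPKM. All 3 were highest in library 3, as were Ihh and Shh. Gli2 and Gli3, which carry the response in the nucleus, averaged 19.7 ± 3.44 and 19.2 ± 3.28 FPKM and were highest in library 2. Of 15 genes 3 were called variable, Gli1 and Hhip among them. Neither Gli1 nor Hhip was called without library 3, and Gli1 was not called without library 2.

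**Figure D4:**
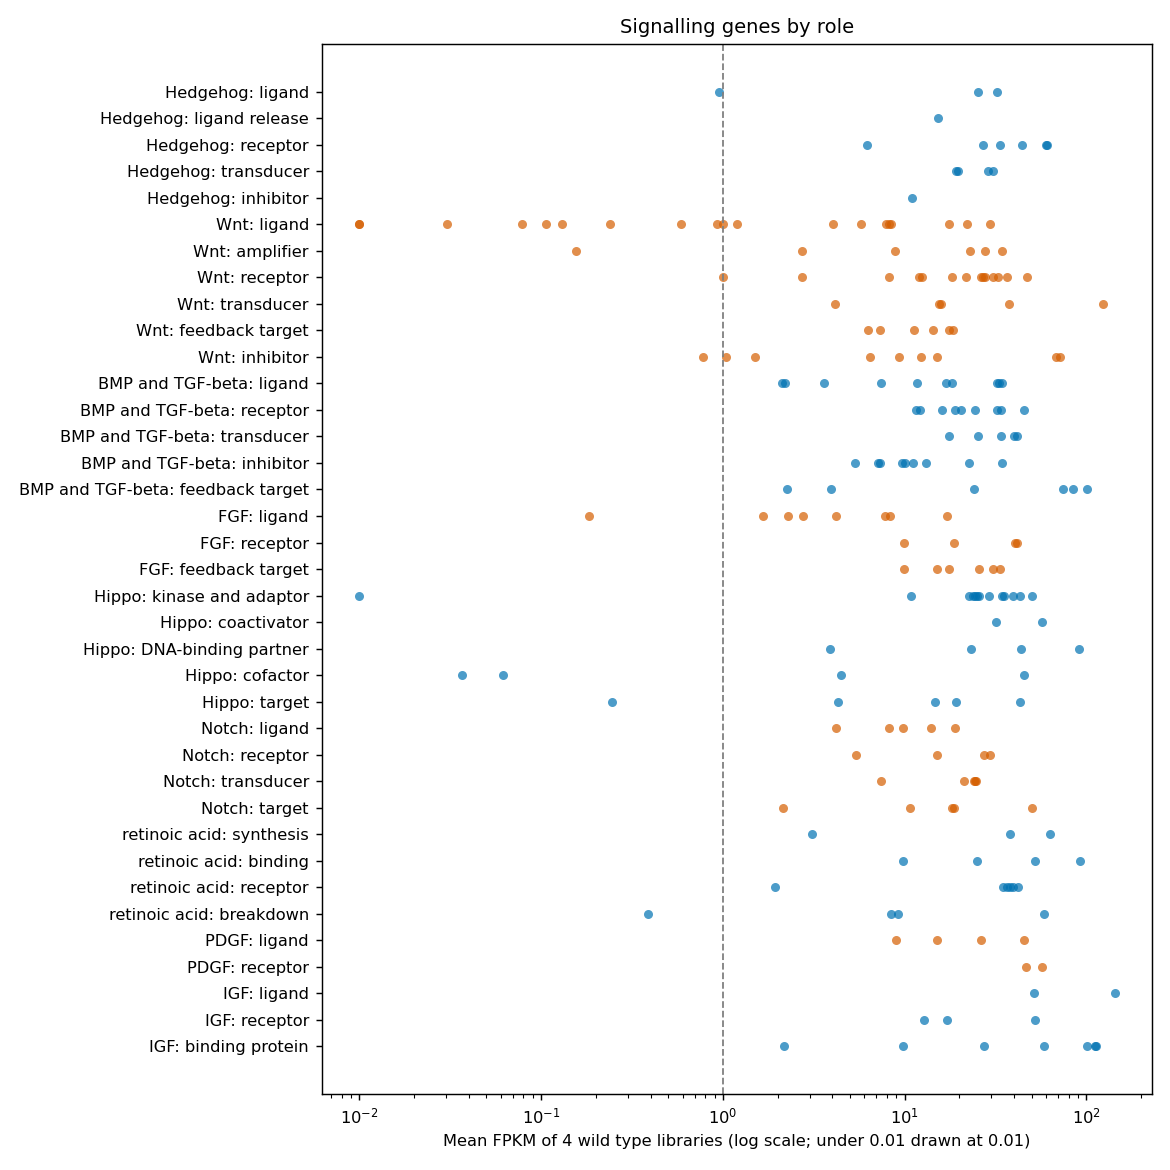
Mean FPKM (log scale) of signalling genes in the 4 wild type libraries, grouped by pathway and role, with colours alternating between pathways and the dashed line at 1 FPKM. Of 19 Wnt ligands 9 lie under 1 FPKM, whereas the retinoic acid receptors other than Rxrg lie between 34.8 and 42.1 FPKM.

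Not all Wnt ligands of the genome were expressed. Of 19 ligands with a locus, 8 reached 1 FPKM in every library and 9 averaged under 1, among them 2 with no fragment (Wnt1 and Wnt8a). The share expressed was below the 58.4% of all named loci. Wnt5a, a ligand of the noncanonical route, led with 26, 30.3, 31.5 and 29.7 FPKM. Wnt2b, a ligand of gut mesenchyme, had 18.6, 22.5, 28.5 and 18.5 FPKM. Wnt5b had 15.5, 17, 19.1 and 18.2 FPKM. Wnt5a was the highest ligand in every library, while Wnt2b and Wnt5b overlapped in range. Wnt9a, Wnt4 and Wnt11 followed with 8.42 ± 1.55, 8.17 ± 2.32 and 7.95 ± 1.52 FPKM and did not differ beyond the spread. Wnt7b, an epithelial ligand, had 9.73, 5.93, 4.26 and 3.03 FPKM, falling in the order of libraries 0, 1, 2 and 3. It was called variable.

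R-spondins, which raise Wnt signalling at the receptor, had Rspo1 at 34.1 ± 4.95 FPKM, Rspo3 at 22.9 ± 2.98 and Rspo2 at 8.88 ± 0.83 FPKM, with no overlap between neighbours in this order. The stem cell receptor Lgr5 averaged 2.72 ± 0.316 FPKM and its relative Lgr4 27.7 ± 1.38 FPKM. The leading secreted inhibitors stood above every ligand. Sfrp1 had 68.2, 72, 71.8 and 72.8 FPKM in libraries 0 to 3, and Sfrp2 had 67, 64.6, 77 and 62.1 FPKM. Both bind Wnt ligands and are known as genes that Barx1 turns on in stomach mesenchyme, and their ranges overlapped. The inhibitors Dkk3, Dkk2 and Sfrp5 averaged 15 ± 0.674, 12.2 ± 2.47 and 9.35 ± 3.03 FPKM, and Dkk1 1.04 ± 0.279 FPKM. Sfrp5 had 7.62, 11.2, 6.05 and 12.6 FPKM and was called variable, lowest in library 2. Fzd2 was the highest receptor with 47.1 ± 1.73 FPKM. Axin2, the common feedback target of the canonical route, had 15.6, 17.2, 19.2 and 18 FPKM and was steady. Of 51 Wnt genes tested 7 were called variable, 3 of them still without library 0.

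BMP ligands were led by Bmp7 with 36.3, 31.5, 33 and 36.8 FPKM and Bmp4 with 33.6, 32.6, 29.1 and 36.8 FPKM in libraries 0 to 3. These ligands of gut mesenchyme and epithelium did not differ beyond their spread. Tgfb3 averaged 32.3 ± 4.99 FPKM, Tgfb2 18.3 ± 3.67 and Tgfb1 16.8 ± 2.72 FPKM. Bmp5 and Bmp6 averaged 11.7 ± 1.5 and 7.43 ± 1.23 FPKM, and Bmp2, a ligand of epithelium and vessels, 3.6 ± 1.04 FPKM. The inhibitor Fst, follistatin, had 28.1, 34, 40.4 and 35 FPKM and stood at the level of the leading ligands. Nog, the BMP antagonist noggin, averaged 5.36 ± 0.843 FPKM, and Grem1, a BMP antagonist of gut muscle, 9.61 ± 2.26 FPKM. The direct targets Id3, Id1 and Id2 averaged 101 ± 7.63, 84.6 ± 5.01 and 74.5 ± 4.2 FPKM. Of 39 genes tested 3 were called variable (Bmp2, Bmp3 and Msx2), each highest in library 0.

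Among FGF ligands Fgf10, which mesenchyme sends to epithelium, led with 12.9, 20.7, 15.9 and 19.2 FPKM in libraries 0 to 3. Fgf9 had 5.55, 7.79, 11.1 and 6.68 FPKM and Fgf18 had 6.21, 7.24, 12.1 and 7.71 FPKM. Fgf9, a ligand of epithelium and mesothelium, and Fgf18 were both highest in library 2 and were called variable, and neither was called without that library. Fgf10 was above both in every library. Fgf7 averaged 2.28 ± 0.607 FPKM and Fgf8 0.184 ± 0.149 FPKM. Fgfr2, the epithelial receptor of Fgf10, averaged 41.3 ± 3.81 FPKM and Fgfr1 40.6 ± 1.89 FPKM, which did not differ beyond the spread. Fgfr3 and Fgfr4 were lower with 18.8 ± 5.18 and 9.89 ± 2.34 FPKM. The feedback targets Spry1 and Spry2 averaged 33.4 ± 2.73 and 30.8 ± 0.613 FPKM. In all, 6 of 17 genes were called variable, with 2 of the list called without library 2.

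The Hippo pathway restrains the coactivators Yap1 and Wwtr1 (TAZ), which bind DNA through Tead factors. Yap1 had 55.7, 55.9, 59.2 and 58.6 FPKM in libraries 0 to 3, and Wwtr1 had 30.7, 30.4, 35.4 and 30.05 FPKM. Yap1 was above Wwtr1 in every library, and neither was called variable. Tead2 was the highest of its family with 94.2, 87.2, 89.5 and 92.4 FPKM. Tead3 averaged 43.4 ± 2.57 FPKM, Tead1 23.2 ± 3.28 and Tead4 3.86 ± 0.688 FPKM, each group of libraries below the one before. Of the kinases, Stk3 and Stk4 averaged 25.6 ± 1.87 and 24.5 ± 0.788 FPKM and Lats2 22.6 ± 1.71 FPKM. The fragments of Lats1 lay in a locus joined with Nup43, which had 56.6, 58.2, 61.8 and 63.3 FPKM, so Lats1 itself is listed at 0. Targets of the pathway differed widely, with Axl at 43.1 ± 1.22 FPKM, Cyr61 at 19.2 ± 2.63, Ctgf at 14.7 ± 2.1 and Ankrd1 at 0.245 ± 0.25 FPKM. Of 24 genes 2 were called variable (Tead4 and Amigo2). The FPKM per fragment of Tead4 differed 1.5-fold or more between libraries, so its FPKM is uncertain.

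Notch signals pass between neighbouring cells. Of its ligands, Jag1 averaged 19 ± 1.57 FPKM, Dll1 14 ± 3.91, Jag2 9.83 ± 3.07, Dll4, a ligand of vessels, 8.19 ± 1.91 and Dll3 4.18 ± 1.48 FPKM. Dll1 had 16.9, 10.9, 10.3 and 17.8 FPKM, high in libraries 0 and 3, and its range overlapped those of both neighbours. Of the receptors, Notch3 averaged 29.4 ± 2.22 and Notch2 27.3 ± 5.04 FPKM, a pair that overlapped, and Notch1 15.1 ± 0.619 and Notch4 5.41 ± 1.07 FPKM. The target Hes1 had 56.3, 46.5, 45.2 and 51.5 FPKM. Of 19 genes, 3 were called variable, all of them ligands (Dll1, Dll3 and Jag2).

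Retinoic acid is made by aldehyde dehydrogenases and cleared by Cyp26 enzymes. Aldh1a2, the main synthesis enzyme of gut mesoderm, had 60.9, 63.7, 72.6 and 56.1 FPKM in libraries 0 to 3. Rdh10, which makes its substrate, had 34.2, 37.9, 41.2 and 37.9 FPKM. Aldh1a3 had 5.59, 3.05, 2.29 and 1.45 FPKM. Aldh1a2 was the highest of the 3 in each library, and Aldh1a3, the lowest, was called variable with its top value in library 0. Of the clearing enzymes, Dhrs3, which turns retinal back to retinol, averaged 58.3 ± 4.21 FPKM. Cyp26b1 and Cyp26a1 averaged 9.21 ± 1.98 and 8.45 ± 2.82 FPKM and overlapped. Crabp1, a retinoic acid binding protein, averaged 92.7 ± 6.84 FPKM, and the receptors Rarb, Rara and Rarg 39.4 ± 3.31, 36.7 ± 1.34 and 34.8 ± 2.31 FPKM.

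Pdgfra, the receptor of mesenchymal cells, had 46.8, 60.4, 57.5 and 64.7 FPKM in libraries 0 to 3, and Pdgfrb, that of vessel wall cells, averaged 46.6 ± 1.95 FPKM. Of the ligands, Pdgfa averaged 45.3 ± 4.1 FPKM, Pdgfc 26.3 ± 3.24, Pdgfb 15.1 ± 0.813 and Pdgfd 8.98 ± 1.2 FPKM, with no overlap between neighbours, and 0 of 6 PDGF genes were called variable. Igf2, the fetal growth ligand, had 147, 139, 143 and 144 FPKM, against 51.4 ± 3.88 FPKM for Igf1. Of their binding proteins, Igfbp4, Igfbp2 and Igfbp5 averaged 112 ± 4.68, 112 ± 6.35 and 101 ± 5.58 FPKM, and Igfbp7 and Igfbp6, both called variable, 27.2 ± 9.31 and 9.8 ± 3.2 FPKM. Igf2 and 3 of its binding proteins thus stood among the more abundant RNAs of the tissue. For the neural crest, Gdnf had 10.8, 13.55, 14.2 and 14.7 FPKM and Edn3, the ligand of Ednrb, 19.6, 23.4, 21.6 and 19.2 FPKM. Ret, the receptor of Gdnf on enteric precursors, had 16.6, 16.3, 20.3 and 19.9 FPKM and its partner Gfra1 44.2, 49.2, 58.9 and 55.2 FPKM. None of these 4 genes was called variable. Of the 6 genes of this list 2 were, namely Nrtn, a relative of Gdnf, with 14.5, 9.84, 10.04 and 7.94 FPKM, and Gfra2, the receptor chain of Nrtn, with 8.03, 8.87, 10.7 and 4.15 FPKM. EGF family ligands were low, with a median of 2.12 FPKM over 10 genes.

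Hox genes mark position along the body axis, with low numbers at the front and high numbers at the rear. The levels fell off sharply by number. Hoxb5 had 38.4, 53.1, 58 and 40.6 FPKM in libraries 0 to 3 and was the highest single-name Hox gene in each. Hoxb2 had 33.6, 33.3, 37.6 and 34.5 FPKM. Hoxa4 had 21.9, 26.6, 26.6 and 30.00 FPKM. The fragments of Hoxb5 were 213, 264, 296 and 325, highest in library 3, whereas its FPKM was highest in library 2, so its order over the libraries is uncertain. Its first rank is uncertain too, with 0.0985 fragments per exonic base against 0.1039 for Hoxb2 and 0.1455 for Hoxa4. None of the 3 was called variable. Hoxb8, Hoxb7, Hoxc5, Hoxa3 and Hoxc4 averaged 24.5 ± 4.42, 23.4 ± 3.5, 21.5 ± 1.84, 21.3 ± 1.86 and 20.4 ± 1.25 FPKM, a group whose neighbours did not differ beyond the spread. Group 9 genes were low, with Hoxb9 at 2.66 ± 1.09 FPKM, Hoxa9 at 1.12 ± 0.277 and Hoxd9 at 0.547 ± 0.448 FPKM, and Hoxc9 had no fragment. From group 10 on, no gene averaged more than 0.037 FPKM (Hoxa10), which stands for a pair of fragments. The names Hoxa2, Hoxa5, Hoxa6, Hoxa7, Hoxb4 and Hoxb6 lay only in joined loci and are not reported. Hoxb9 and Hoxb1 were called variable, both highest in library 2 and neither called without library 0.

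**Figure D5:**
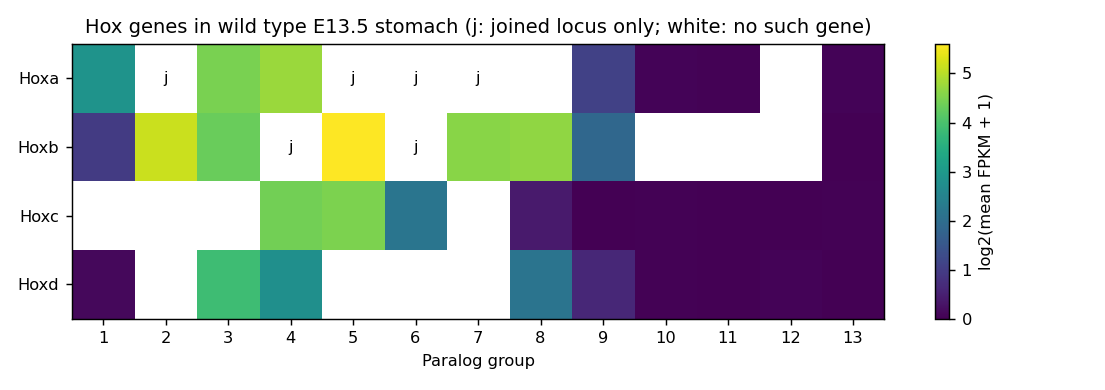
Heat map of the mean level of each Hox gene in the 4 wild type libraries as log2(FPKM + 1), with clusters in rows and paralog groups in columns. Groups 2 to 8 hold the highest values, led in FPKM by Hoxb5 (47.6, an uncertain level), and groups 10 to 13 are near 0, while j marks genes that lie only in a joined locus.

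Cell cycle genes stood at about the same level in all 4 libraries, with a median of 59.6 FPKM, and 0 of 22 were called variable. Mki67, a protein of dividing cells, had 59.2, 63.7, 64.9 and 64.7 FPKM in libraries 0 to 3. Top2a, the topoisomerase of dividing cells, had 80.1, 80.4, 77.1 and 83.1 FPKM. Mcm6, a subunit of the replication helicase, had 84.9, 85.8, 81.1 and 86.5 FPKM. No library stood apart in these, but 12 of the 22 genes were highest in library 3. The list summed to 1233 FPKM there against 1175 to 1188 in the others. Imprinted genes had a median of 81.7 FPKM and 0 of 10 were called variable, led by H19 and Cdkn1c, which were followed by Mest with 116 ± 1.73 FPKM and Plagl1, a zinc finger factor, with 95.3 ± 4.27 FPKM. Immediate-early genes, which respond to handling of tissue, ran from high and steady to low. Jun and Ier2 averaged 50.9 ± 2.42 and 43.5 ± 3.79 FPKM and were not called variable. Of 7 tested 3 were called, namely Fos, Junb and Atf3. Fos had 5.11, 1.97, 1.63 and 2.61 FPKM and Junb had 16.2, 8.51, 8.59 and 9.53 FPKM, both highest in library 0, and Atf3 had 4.74, 3.89, 4.71 and 2.18 FPKM, lowest in library 3. Hspa1a, an inducible heat-shock gene, averaged 1.41 ± 0.407 FPKM. Of hypoxia genes, Vegfa averaged 54.6 ± 8.42 FPKM, and only Car9, a carbonic anhydrase, was called variable with 12.3, 5.68, 3.02 and 4.9 FPKM.

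Over the 14457 tested loci the median CV between libraries was 8.51%, and the ninth decile was 29.7%. Of the 1275 variable loci, 628 (49.3%) were highest in library 0 and 542 (42.5%) were lowest in library 3. Among the 20 single-name loci with the largest CV at 2 FPKM or more and 100 fragments in total, 16 were highest in library 0. Besides Xist and the pancreatic, endocrine and keratin genes already described, they held Pyy, the peptide YY gene, with 89.8, 22.4, 6.53 and 12.2 FPKM in libraries 0 to 3. They held Rbpjl, the acinar partner of Ptf1a, with 15.6, 3.63, 1.01 and 1.35 FPKM. Aqp3, a water channel of squamous epithelium, had 9.79, 0.737, 2.44 and 0.793 FPKM. All 3 were highest in library 0. Pcsk2, a protease that matures peptide hormones, had 9.44, 2.77, 1.51 and 1.32 FPKM, Mat1a, a methionine adenosyltransferase, 6.57, 2.39, 0.633 and 0.514 FPKM, and Ndufa4l2, a hypoxia-induced protein, 19, 4.79, 3.37 and 3.51 FPKM.

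A further set among the 20 followed other patterns. A second, smaller locus named Tmem200a, a membrane protein gene, had 4.79, 0.0179, 5.69 and 0.0014 FPKM in libraries 0 to 3, present in libraries 0 and 2 and almost absent in the others. The locus of that name with the most fragments had 20.5, 31.8, 29.5 and 31.3 FPKM and was not called variable, so the gene itself was present in every library. Zfp748, a zinc finger gene, had 3.0, 1.76, 5.35 and 13.1 FPKM, highest in library 3. Gm8909, a predicted gene, had 1.21, 6.42, 2.79 and 0.268 FPKM, highest in library 1. Without library 0 the count of variable loci fell to 812, of which 687 were among the 1275. Where a locus is joined with a small RNA gene, FPKM could also jump while the fragments did not. The locus that joins Mir704 with Pdia4, a chaperone gene, had 79.8, 6281, 80.4 and 84.7 FPKM from 1168, 1277, 1251 and 1249 fragments. Of 10625 loci with 100 fragments in every library, 21 differed 5-fold or more in FPKM with under 1.5-fold in fragments, and all 21 were joined loci with a microRNA or small nucleolar RNA name. Such values are not used as levels here.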

How the data were processed

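RNA of 4 wild type E13.5 stomach libraries was sequenced, and the groups were taken from the genotype labels. The build mm10 and the tools TopHat2 2.0.9, Cufflinks 2.2.1 and Cuffdiff are named, with no role, per the submitters' processing notes. The sources used here do not give read filters, duplicate treatment or strand use, so reads of overlapping genes cannot be told apart. The deposited table gives raw fragments per locus and library, which are estimated counts, since 10.4% to 10.5% of the values were not whole within 0.001. It also gives FPKM as scaled by the authors, and the deposited group FPKM equalled the mean of the 4 libraries within 0.01. FPKM sums differed by at most 4.07% between libraries. Of 106988 wild type values 1 had a failed status and was kept. The 3582 unnamed loci, with 1.90% to 1.97% of the fragments, and the 561 further loci of a name already listed were left out of rankings by single name.

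Fragments were rounded to whole numbers and scaled with TMM factors of edgeR 4.0.16 in R 4.3.3. The chi-square test of homogeneity over the 4 libraries (3 degrees of freedom, scipy 1.17.1, Python 3.11.15) was run on all 14457 named loci with 40 or more fragments, with Benjamini-Hochberg adjustment over all of them. The p-values measure only the spread between these libraries. In simulated data of 14381 loci, 200 of them with an added CV of 0.5, it called 79.2% of those 200, and 0.64% of its calls were false. The other simulated loci varied by counting error alone. That share therefore checks the test and is no error rate for the calls made in these libraries. Every pair of libraries differed beyond counting error, at 911 to 2934 loci of the 13502 to 13664 tested per pair. Each library was counted as 1 sample, though such differences do not show whether it is 1 embryo.

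Coordinates are on mm10 (GRCm38). Exon lengths came from GENCODE M21 on that build and covered 90.9% of the tested single-name loci. Promoters and the miRNA came from RefSeq, GRCm38.p6. A few list members enter the counts and are not reported here by name. The members and gene lists were chosen with earlier results of these data known. Genes were named by rule: the 25 highest by mean FPKM, the 4 highest of each list, every member of the role groups whose order is described, the 20 most variable with 2 FPKM and 100 fragments, variable list members and sex-linked genes. Other genes named as markers or to complete a count, and the ranking of loci with 100 fragments in every library, were chosen after their values were seen.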

Additional observations from a re-analysis of the deposited data

Results flagged for a closer look

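In 45 of 354 named genes and 3 of 38 list sums, 1 library lay apart from the other 3, its gap to the nearest, as a share of the whole range, being above Dixon's 95% critical value for 4 samples. Over all 13515 expressed single names this held for 5.78%, and chance flags about 1 in 20. Many of the 354 were named because they varied between libraries, and some had hardly any fragments. Their share is therefore not comparable with that over all names. Library 0 was the one apart in 324 of those, library 1 in 95, library 2 in 144 and library 3 in 218. The shares of the range follow for each.

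Library 0 was high for the list sums of epithelial transcription factors (0.837, but 0.263 without Foxa3, a member set aside after its values were seen) and gland secretion (0.842), and library 3 was low for macrophages and leukocytes (0.907). Of endocrine genes library 0 was high for Chgb (0.840), Chga (0.859), Scg2 (0.876), Neurod1 (0.983), Fev (0.852) and Gast (0.966). Of pancreatic genes it was high for Ins2 (0.958), Ins1 (0.913) and Cel (0.861). Of epithelial and gland genes it was high for Elf3 (0.916), Perp (0.919), Cldn18 (0.952), Ehf (0.870) and Pgc (0.910). It was also high for Actg2 (0.851), Ndufa4l2 (0.909), Wnt4 (0.899), Wnt10a (0.862), Dkk1 (0.910), Junb (0.867), Sftpc (1.0) and Mir103-2 (1.0), and low for Crabp2 (0.921).

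Library 1 was low for Klf5 (0.843) and high for Fgf20 (0.891), Mir1905 (0.933) and Mir1930 (1.0). Library 2 was high for Erbb2 (0.938), Wwtr1 (0.884), Hoxd8 (0.855), Hoxa11 (1.0), Hoxc10 (1.0), Hoxc13 (1.0), Hoxd10 (1.0), Sftpb (1.0) and Mir1894 (1.0). Library 3 was high for Xist (0.998), Hoxa9 (0.861), Hoxa13 (1.0), Snord1c (1.0) and Mir1898 (1.0). It was low for Ddx3y (0.862), Kdm5d (0.878) and Uty (0.925). A share of 1.0 means that the other 3 values were equal, at 0 for these genes.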

How the results depend on the processing

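The 13531 expressed loci became 14354 at 0.5 FPKM, 11095 at 5 FPKM, 13208 as TPM and 13607 to 13727 without 1 library. The 1275 variable loci became 353 with 400 fragments or more, 4683 with no minimum CV, 406 with a CV of at least 0.5, 812 without library 0 and 971 to 1337 without another. Library size from DESeq2 1.42.0 (1269) or total fragments (1290), 10 fragments or more (1432), the CV of FPKM (1303) and the edgeR variation of each locus (1501) changed the count by less than 1.5 times. List medians moved by more than the spread between libraries in 27 of 38 lists as TPM, in 12 with members at 1 FPKM or more only, and in 8 of 152 values without 1 library. FPKM sums were 1276350 to 1328313 per library, so TPM lowers all genes by nearly the same factor. The count as TPM thus reflects that change of scale and leaves the order of genes almost as it was. Fragments per kilobase of exon were a median of 0.73 times the FPKM over 316 named genes (Spearman's rho 0.71 across genes, which are not independent replicates), so orders between genes depend on the length used, which was not tested further. No paired analysis was possible because only 1 group is described. Values under about 1 FPKM rest on few fragments and are not ordered.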

Other observations

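Genes of granule-bearing blood cells, which are on none of the lists, were among the most variable and were chosen here after their values were seen. S100a8, a calcium-binding protein of neutrophils, had 41.8, 32.7, 42.3 and 2.51 FPKM in libraries 0 to 3. S100a9, its partner, had 50.5, 37.4, 40.2 and 4.4 FPKM. Ngp, the neutrophilic granule protein, had 15.3, 6.01, 5.67 and 0.647 FPKM. All 3 were lowest in library 3, as the summed macrophage genes were. Mpo, the myeloperoxidase of granulocyte precursors, had 5.85, 4.96, 9.88 and 2.31 FPKM. Of mast cell genes, Tpsb2, a tryptase, had 10.6, 3.09, 13.6 and 2.98 FPKM and Cma1, a chymase, had 15.6, 10.6, 12.1 and 3.02 FPKM. Prg2, a granule protein of eosinophils, had 2.96, 6.37, 18.3 and 2.69 FPKM and was highest in library 2. Fragments of these genes were few, with 94, 40, 37 and 4 for Ngp and 12, 28, 79 and 11 for Prg2.

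Some widely expressed genes differed at 1 library as well. Cwc22, a splicing factor, had 42.3, 54.6, 16.6 and 64.6 FPKM from 1214, 1790, 358 and 1938 fragments and was low in library 2. Vcp, an ATPase that unfolds proteins, had 4.68, 5.05, 17.9 and 6.01 FPKM from 135, 159, 447 and 166 fragments at the locus of that name with the most fragments, and was high in library 2. Spp1, the secreted phosphoprotein osteopontin, had 72.6, 48.9, 20.9 and 18.6 FPKM, higher in libraries 0 and 1 than in the others. Gc, the vitamin D binding protein of liver, had 40.8, 25.7, 18.8 and 9.9 FPKM and had the library order 0, 1, 2 and 3 that the pancreatic genes Ctrb1, Cpa1 and Ptf1a had.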
